A study of Mus musculus with 4 samples.

Results

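The genes described here are 10 genes by which cells of the kidney medulla meet high concentrations of salt and urea, of the 31053 genes in the files. They were chosen by name: *Nfat5*, *Akr1b3*, *Slc5a3*, *Slc6a6*, *Slc6a12*, *Cryab*, *Hspb1*, *Hspa4l*, *Slc14a1* and *Slc14a2*. Each had a row of its own, and 9 of them had unique molecular identifiers (UMIs), the counts of RNA molecules in these data. *Slc5a3* had 0 UMIs in every nucleus.

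When urine is concentrated, the interstitium of the medulla fills with sodium chloride and urea, and its cells are surrounded by a hypertonic fluid. NFAT5, also called TonEBP, is the transcription factor that is activated by hypertonicity, and it raises genes whose products make or import compatible organic osmolytes such as sorbitol, *myo*-inositol, taurine and betaine. It also raises chaperones that keep proteins folded at high ionic strength, while urea transporters of the collecting duct and of the descending vasa recta carry urea between urine, interstitium and blood.

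Single-nucleus RNA-seq was performed in kidneys of 4 male mice aged 12 weeks, with 1 library per mouse. Both knockout mice were Cre+,Tfap2aFlox/Flox and both control mice were Cre-,Tfap2aFlox/Flox, so floxed *Tfap2a* alleles were shared by all 4. The Cre was *Hoxb7Cre*, which acts in the ureteric lineage and thus in the collecting duct, and most other cell types are not targeted by it. A middle slice of the kidney was used after its cortex had been trimmed, so cortical classes are those nuclei that were left in a tissue enriched for medulla.

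The libraries held between 22179410 and 44964099 UMIs, and 27341 nuclei passed the filters, with a median of 2629 UMIs and 1577 genes. Nuclei were assigned to 17 cell classes by marker genes, and 25111 nuclei lay in them. Class names rest on these markers and are to be read as proximal tubule-like and so on. Deep medullary epithelium of the pelvis (DMEP) covers the papilla and lines the pelvis, and an endothelial class of 202 nuclei is called by its leading gene *Plat*, which with *Emcn* and *Plvap* is itself on the list of capillary and venous markers. No marker on the lists places this class in cortex or medulla. Neither the 10 genes nor 46 further genes of the same pathway were used to cluster nuclei or to name a class. Of the marker genes listed for the inner medullary collecting duct, 6 of 10 were higher in all 4 mice in the class named for it than in the other principal cells. Of those for principal cells with sodium channel, 7 of 7 were higher in their class. Pairs of libraries shared between 7 and 18 cell barcodes.

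Levels are given as CPM, the UMIs of a gene in a class of 1 mouse per 1000000 UMIs of that class. *Tfap2a*, the targeted gene, had 112 and 121 CPM in sodium channel principal cells of control mice and 88.5 and 159 CPM in those of knockout mice. In connecting tubule it was at 124 and 160 CPM in control and 82.2 and 84.0 CPM in knockout mice, and in deep medullary epithelium at 42.9 and 24.8 CPM in control mice with 0 UMIs in knockout mice. Counts from the 3′ end do not check the genotype, since transcripts without the floxed exons can still be counted. Values of 4 mice are given below in the order control mouse 1, control mouse 2, knockout mouse 1 and knockout mouse 2. Levels are compared between classes and mice only, not between genes.

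RNA outside nuclei was also counted, in barcodes with few UMIs. In this free RNA *Cryab* was at 1082 to 2801 CPM, *Akr1b3* at 342 to 764 CPM, *Slc6a6* at 213 to 240 CPM and *Nfat5* at 144 to 221 CPM. Its share was at most 8.92%, 3.92%, 11.3% and 2.59% of UMIs in inner medullary principal cells and higher in classes of low depth. Low values of *Cryab* and *Akr1b3* in some other classes are thus at the level that free RNA can give. With free RNA subtracted, for example, *Cryab* of the cortical-type thick ascending limb was at 0 CPM in all 4 mice.

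*Nfat5* (ENSMUSG00000003847, chr8:107293435-107379517 of mm10), the regulator, was found in every class. Its class means ran from 225 CPM in immune nuclei and S3 proximal tubule to 1978 CPM in the endothelium led by *Plat*, followed by thin limb with 1454 CPM and arterial and descending vasa recta endothelium with 1239 CPM. In this order neighboring classes overlapped in their ranges over mice at all steps but from connecting tubule to distal convoluted tubule and from S1 and S2 to S3 proximal tubule. Control mouse 2 had the highest *Nfat5* of the 4 mice in several classes, with 2168 CPM in thin limb, 1311 CPM in inner medullary principal cells and 3197 CPM in *Plat*-leading endothelium.

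*Akr1b3* (ENSMUSG00000001642, chr6:34303930-34317489), aldose reductase, makes sorbitol from glucose. It was highest in 4 classes whose ranges overlapped: inner medullary principal cells with 4411 to 7506 CPM, *Plat*-leading endothelium with 2050 to 5870 CPM, thin limb with 3396 to 4727 CPM and deep medullary epithelium of the pelvis with 2313 to 4043 CPM. All other classes lay below these 4 classes in every mouse, and proximal tubule, thick ascending limb and distal convoluted tubule did not exceed 72.2 CPM. At least 1 UMI of *Akr1b3* was found in 99.1% of inner medullary principal nuclei, against 12.5% of S1 and S2 nuclei, at median depths of 4378 and 3094 UMIs. With each nucleus thinned to 1000 UMIs these shares were 91.4% and 4.53%.

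*Slc6a6* (ENSMUSG00000030096, chr6:91684048-91759063), the taurine transporter, had another order. Its highest values were in arterial and descending vasa recta endothelium with 680 to 1352 CPM, thin limb with 648 to 995 CPM and S3 proximal tubule with 596 to 951 CPM. Both thick ascending limb classes were lowest, with 16.8 to 37.6 CPM in the cortical type and 17.8 to 37.2 CPM in the medullary type. Inner medullary principal cells were near this low end with 30.8 to 56.1 CPM. Ranges of neighboring classes overlapped except from capillary and venous endothelium to intercalated cells and from sodium channel principal cells to connecting tubule.

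*Slc6a12* (ENSMUSG00000030109, chr6:121342574-121365773), the betaine transporter, was a gene of low counts, with 545 UMIs in all nuclei. Of these, 199 UMIs lay in inner medullary principal cells, 151 UMIs in the medullary-type thick ascending limb and 59 UMIs in thin limb. Connecting tubule, immune nuclei, podocytes and arterial and descending vasa recta endothelium had 0 UMIs in all mice.

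*Slc5a3* (ENSMUSG00000089774, chr16:92058322-92087473), the *myo*-inositol transporter, was at 0 UMIs in nuclei and in free RNA. Its interval overlaps that of *Mrps6* (chr16:92058336-92112227), which had 3 UMIs in nuclei. Whether reads shared by both genes were dropped in counting was not tested, so a count of 0 says nothing of the level of *Slc5a3* here.

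*Cryab* (ENSMUSG00000032060, chr9:50745951-50756636), the small heat shock protein alphaB-crystallin, shared the 4 leading classes of *Akr1b3*. It was at 11490 to 20960 CPM in thin limb, 6517 to 23440 CPM in *Plat*-leading endothelium, 7835 to 19400 CPM in inner medullary principal cells and 4339 to 9664 CPM in deep medullary epithelium. Below them followed interstitial cells, with 1047 to 3861 CPM and no overlap with deep medullary epithelium. In each of the 4 leading classes control mouse 2 had the lowest *Cryab*. *Cryab* overlaps the gene *Hspb2*, so counts of both are uncertain where reads could be assigned to either.

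*Hspb1* (ENSMUSG00000004951, chr5:135887919-135889563), the small heat shock protein HSP25, was at 820 to 1021 CPM in deep medullary epithelium, 471 to 1176 CPM in inner medullary principal cells and 538 to 1095 CPM in *Plat*-leading endothelium. It stayed between 3.20 and 8.38 CPM in the medullary-type thick ascending limb and between 1.15 and 2.93 CPM in S3 proximal tubule. *Hspa4l* (ENSMUSG00000025757, chr3:40744500-40796103), the osmotic stress protein OSP94 of the HSP110 family, was again highest in the same 4 classes as *Akr1b3*, with 223 to 509 CPM in *Plat*-leading endothelium, 87.5 to 267 CPM in inner medullary principal cells, 138 to 210 CPM in deep medullary epithelium and 102 to 164 CPM in thin limb. Its other 13 classes had class means of at most 60.3 CPM.

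Among the named classes, the urea transporters were each led by 1 class without overlap in range. *Slc14a2* (ENSMUSG00000024552, chr18:78146144-78596950), which encodes the UT-A transporters, had 1962 of its 2505 UMIs in inner medullary principal cells, at 601 to 785 CPM, and deep medullary epithelium followed with 12.4 to 81.8 CPM. UMIs of *Slc14a2* were found in 79.1% of inner medullary principal nuclei and in 0.236% of S1 and S2 nuclei (44.5% and 0.0966% after thinning). *Slc14a1* (ENSMUSG00000059336, chr18:78100091-78142119), which encodes UT-B, was at 726 to 1471 CPM in arterial and descending vasa recta endothelium, where 59.0% of 83 nuclei had a UMI, against 0.142% of S1 and S2 nuclei. *Slc14a1* followed in *Plat*-leading endothelium with 0 to 477 CPM and in deep medullary epithelium with 155 to 254 CPM. A subcluster of *Plat*-leading endothelium described below overlapped the leading class in *Slc14a1*. For *Slc14a2*, a subcluster outside the named classes lay above the leading class in both control mice and below it in knockout mouse 1. *Slc14a2* was among the leading genes of that subcluster, which is described at the end.

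**Figure D1:**
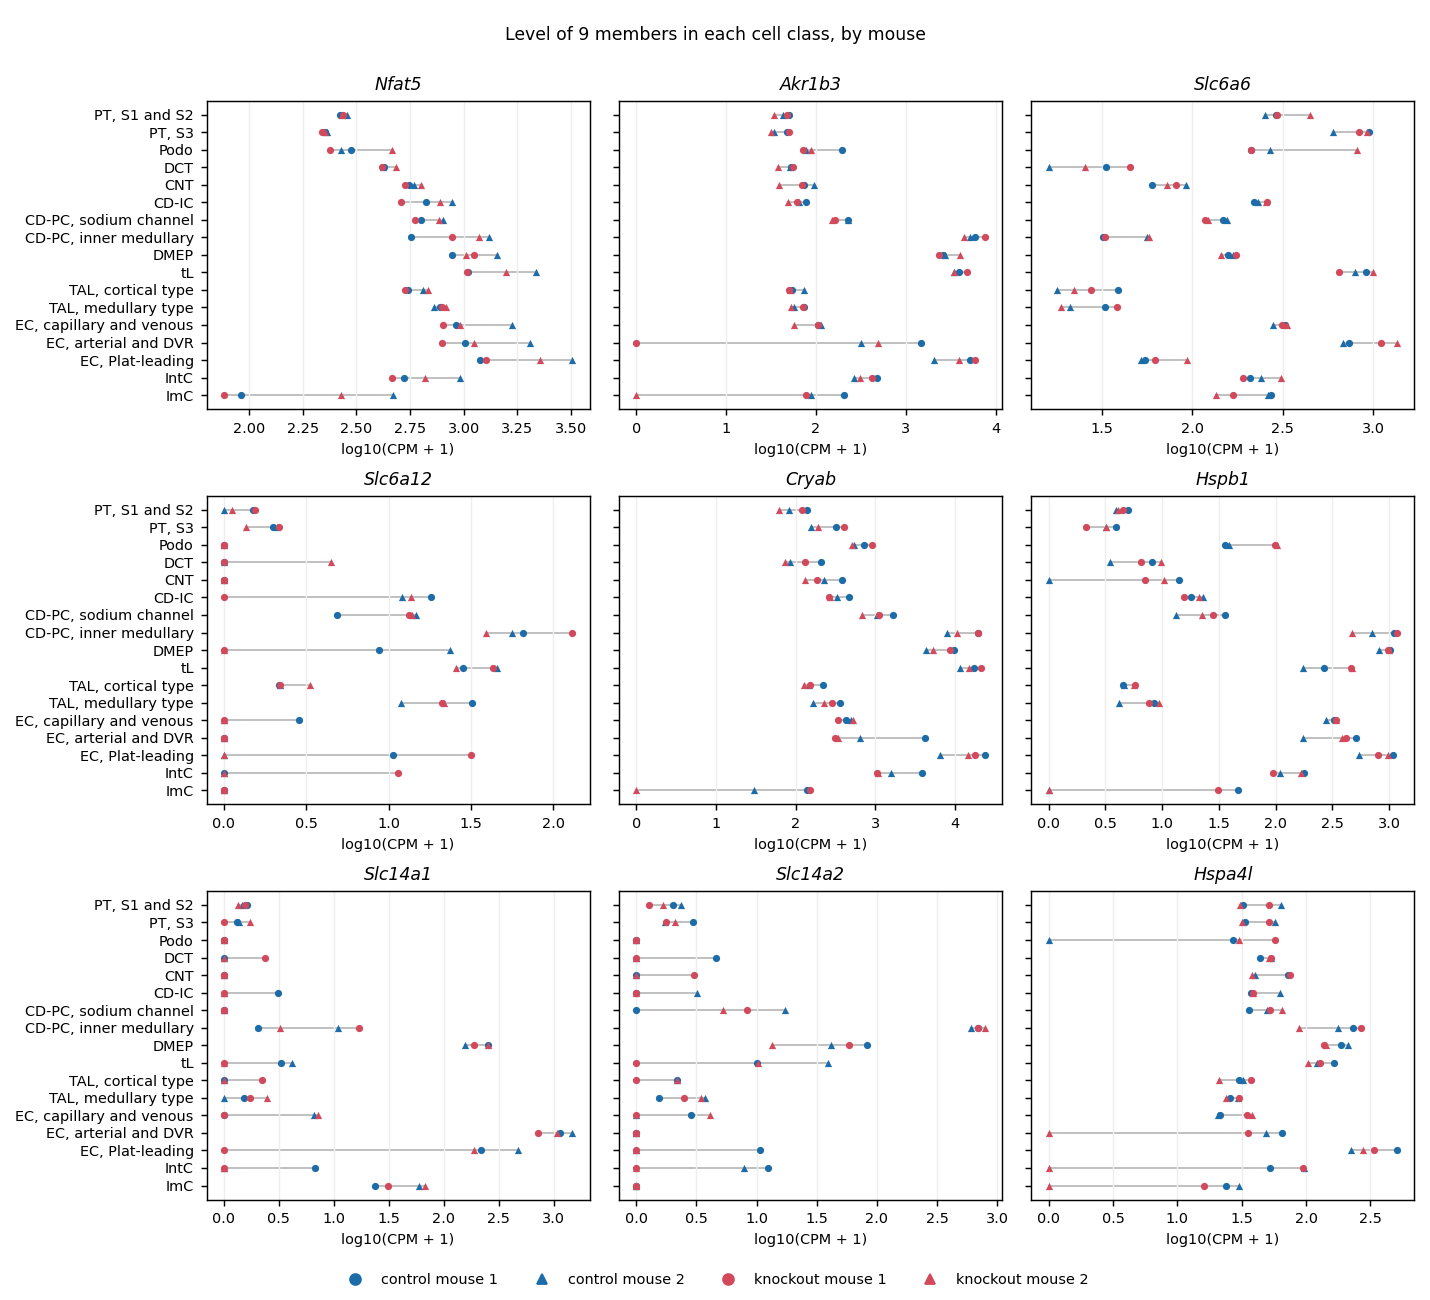
Level of the 9 counted genes as log10(CPM + 1) in 17 cell classes, with 1 point per mouse (blue control, red knockout, circles mouse 1, triangles mouse 2) and a gray line over their range. *Slc14a2* stands out in inner medullary principal cells at 601 to 785 CPM and *Slc14a1* in arterial and descending vasa recta (DVR) endothelium at 726 to 1471 CPM, whereas *Akr1b3* and *Cryab* share 4 high classes.

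To compare collecting duct cells by position, inner medullary principal cells (652 nuclei) were set against principal cells with sodium channel (554 nuclei), which lie in cortex and outer medulla. The sums of UMIs of each class in each mouse were compared by the quasi-likelihood test of edgeR, with the mouse as a term and Benjamini-Hochberg adjustment over all genes tested. Of the 9 genes tested, 9 had an adjusted p under 0.05, 8 of them higher in inner medullary cells, where 34.7% of the 13151 genes tested were called, 17.6% higher and 17.2% lower. The median log2 difference of the 9 genes was 3.66, that of all genes 0.02.

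*Akr1b3* was at 5864, 5118, 7506 and 4411 CPM in inner medullary and at 228, 228, 160 and 150 CPM in sodium channel cells. All 4 inner medullary values lay above all 4 others, 30.4-fold (log2 4.92, standard error 0.165, adjusted p = 3.99e-24). *Slc6a12* was at 64.8, 55.1, 130 and 38.2 CPM against 3.86, 13.6, 12.3 and 12.9 CPM, a log2 difference of 2.66 (standard error 0.318, adjusted p = 9.90e-09). The betaine transporter was thus higher in each mouse, though from 199 and 19 UMIs only.

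The taurine transporter *Slc6a6* went the other way. It was at 30.8, 55.1, 31.9 and 56.1 CPM in inner medullary and 147, 154, 116 and 120 CPM in sodium channel cells, so it was 3.07-fold lower in the inner medullary class (log2 -1.62, standard error 0.203, adjusted p = 3.06e-08) and lower in 4 of 4 mice.

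Among the chaperones, *Hspb1* was at 1108, 713, 1176 and 471 CPM against 34.8, 12.2, 27.1 and 21.5 CPM. This was 40.6-fold higher, with no overlap (log2 5.34, standard error 0.214, adjusted p = 7.07e-22). *Cryab* was at 19400, 7835, 19200 and 10600 CPM against 1685, 1054, 1114 and 675 CPM, and the log2 difference was 3.66 (standard error 0.154, adjusted p = 2.93e-21). Mice with the number 1 had the higher *Cryab* in either genotype in inner medullary cells. *Hspa4l* was at 231, 177, 267 and 87.5 CPM against 34.8, 48.9, 51.6 and 64.5 CPM, 3.91-fold higher (log2 1.97, standard error 0.223, adjusted p = 2.82e-09).

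*Slc14a2* had the largest log2 difference of the 8 genes with UMIs in both classes. It was at 692, 601, 698 and 785 CPM against 0, 16.3, 7.38 and 4.30 CPM, 71.6-fold (log2 6.16, standard error 0.269, adjusted p = 9.36e-21). The sodium channel cells held 16 UMIs, 12 of them from control mouse 2, without which the log2 difference was 7.31. *Slc14a1* had 20 UMIs in inner medullary cells and 0 UMIs in sodium channel cells. Against a floor of 3 counts over the group it was at least 3.75-fold higher (adjusted p = 0.00376), and this call was lost with DESeq2 (adjusted p = 0.134) and without control mouse 2 (adjusted p = 0.0663).

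*Nfat5* itself differed least. It was at 568, 1311, 883 and 1176 CPM against 634, 798, 595 and 765 CPM, higher in inner medullary cells of 3 of 4 mice (log2 0.49, standard error 0.144, adjusted p = 0.0068). Both classes overlapped, and control mouse 1 went the other way. The call was lost without control mouse 2 (log2 0.40, adjusted p = 0.107), without knockout mouse 1 (log2 0.42, adjusted p = 0.066), with DESeq2 (log2 0.47, adjusted p = 0.0864), with free RNA subtracted (log2 0.46, adjusted p = 0.0504) and in the 2 control mice alone (log2 0.32, adjusted p = 0.344).

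Promoter windows of the 250 bases before the start of transcription were taken from RefSeq (GRCm38.p6, the build mm10) for 5 of the 10 genes. These windows were searched on both strands for the tonicity-responsive enhancer, the 11-base motif bound by NFAT5. No window of the other genes on the list was searched, so whether they hold a match was not tested. A match was found in *Slc6a12* and *Hspb1*, and none in the windows of *Nfat5*, *Hspa4l* and *Slc5a3* or in 4 further windows of *Slc6a12*. Higher levels in inner medullary principal cells were called for *Slc6a12* and *Hspb1*, but also for *Nfat5* and *Hspa4l*, which had no match. Of 32851 windows searched, 4.31% held a match. The window of *Slc6a12* (chr6:121342324-121342573, plus strand) has its match on the plus strand 75 bases before the start, and that of *Hspb1* (chr5:135887669-135887918, plus strand) has its match on the minus strand 118 bases before the start. Capitals mark the match, and both sequences are printed 5′ to 3′ on the strand of the gene.
Slc6a12: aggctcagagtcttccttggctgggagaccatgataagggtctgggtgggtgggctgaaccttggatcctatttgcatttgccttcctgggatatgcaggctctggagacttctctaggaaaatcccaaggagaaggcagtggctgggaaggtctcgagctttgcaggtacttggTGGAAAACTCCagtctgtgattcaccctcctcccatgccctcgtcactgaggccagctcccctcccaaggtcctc
Hspb1: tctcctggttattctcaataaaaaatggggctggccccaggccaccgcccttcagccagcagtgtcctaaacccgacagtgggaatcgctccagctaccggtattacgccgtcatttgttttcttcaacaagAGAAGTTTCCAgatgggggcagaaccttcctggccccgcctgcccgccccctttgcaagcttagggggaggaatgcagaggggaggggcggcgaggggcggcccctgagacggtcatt
A match describes these letters and does not show that NFAT5 binds there.

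Inner medullary principal cells consisted of 3 subclusters that differed in most of these genes. *Akr1b3* was at 1806 to 2819 CPM in the first, at 5505 to 7129 CPM in the second and at 7823 to 11620 CPM in the third, without overlap between them. *Slc6a12* was at 0 to 86.3 CPM in the first, 35.3 to 74.7 CPM in the second and 72.8 to 259 CPM in the third, so that the third lay above the second in all mice. *Hspa4l* followed in the same order with 27.9 to 103, 99.3 to 228 and 158 to 541 CPM, neighbors overlapping in range.

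The other genes did not keep this order. *Slc14a2* was at 301 to 495 CPM in the first subcluster, 771 to 1112 CPM in the second and 759 to 934 CPM in the third, so that only the first stood apart. *Hspb1* was likewise lower in the first, with 189 to 527 CPM, than in the second with 741 to 1562 CPM and the third with 704 to 1594 CPM. *Nfat5* ranged over 555 to 1383, 544 to 1283 and 613 to 1407 CPM, and these ranges overlapped throughout. With each subcluster tested on its own against sodium channel cells, a choice made after the data were seen, *Akr1b3* gave log2 differences of 3.57, 5.03 and 5.46 and *Slc14a2* of 5.18, 6.47 and 6.31. *Hspa4l* (log2 0.48, adjusted p = 0.218) and *Slc6a12* (log2 1.21, adjusted p = 0.0877) missed the threshold in the first subcluster.

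Thin limb was divided still more clearly. The subcluster led by *Sptssb* had 5976 to 9842 CPM of *Akr1b3*, against 649 to 1245 CPM in the *Aqp1*-led and 320 to 481 CPM in the *Fst*-led subcluster. *Cryab* was at 19250 to 39390 CPM in the former and at 4516 to 7515 and 2803 to 5635 CPM in the latter. *Slc6a6* was the inverse, with 122 to 188 CPM in the *Sptssb*-led subcluster, 914 to 1699 CPM in the *Aqp1*-led and 1105 to 2145 CPM in the *Fst*-led subcluster. A class high in aldose reductase was thus low in the taurine transporter both in the collecting duct and in thin limb. These are descriptions of clusters over 4 mice, with 20 to 121 nuclei per mouse and subcluster, and no test was made between them.

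**Figure D2:**
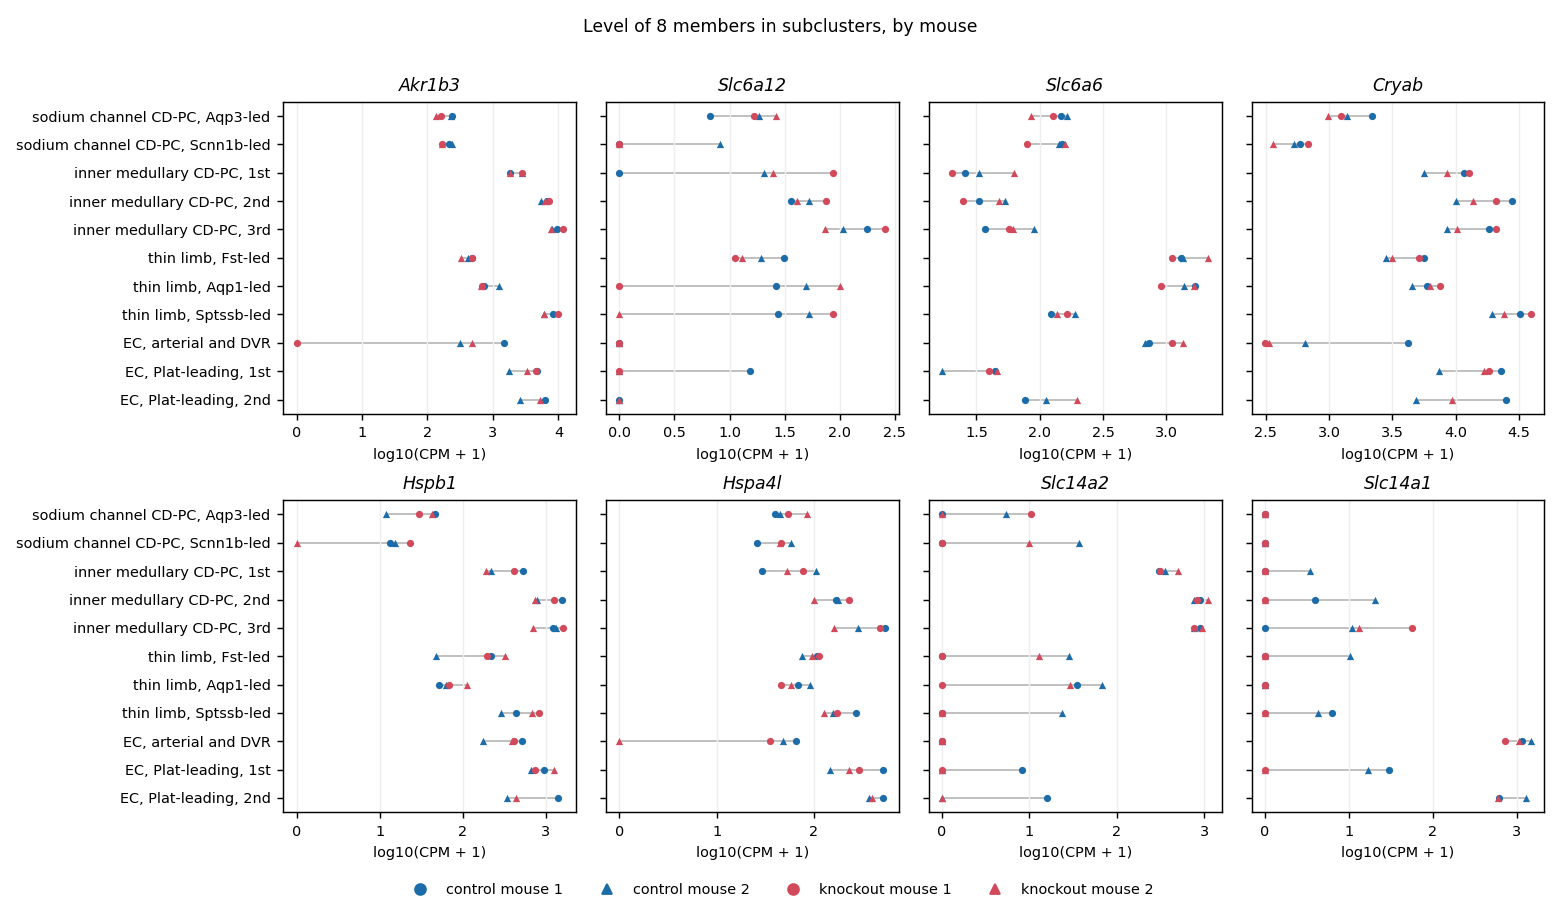
Level of 8 of the genes as log10(CPM + 1) in subclusters of principal cells, thin limb and endothelium, with 1 point per mouse (blue control, red knockout, circles mouse 1, triangles mouse 2) and a gray line over their range. *Akr1b3* steps up over the 3 inner medullary subclusters, and *Slc6a6* is low in the *Sptssb*-led thin limb at 122 to 188 CPM, where *Akr1b3* is high at 5976 to 9842 CPM.

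In the thick ascending limb, 3650 nuclei of the medullary type were compared with 1540 nuclei of the cortical type, which is high in *Enox1*. Of the 8 genes tested, 3 were called and all 3 were higher in the medullary type, against 13.7% of 14763 genes in all, 6.54% higher and 7.15% lower. The median log2 difference was 0.49 for the 8 genes and 0.04 for all genes. *Slc6a12* was at 31.2, 10.95, 20.1 and 20.7 CPM in the medullary and at 1.18, 1.20, 1.21 and 2.35 CPM in the cortical type. It was 13.1-fold higher without overlap (log2 3.71, standard error 0.435, edgeR adjusted p = 7.05e-16), from 151 and 5 UMIs. UMIs of *Slc6a12* were found in 3.84% of medullary-type and 0.325% of cortical-type nuclei, at medians of 1918 and 2060 UMIs, and in 0.113% of S1 and S2 nuclei.

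*Nfat5* was at 771, 725, 793 and 829 CPM in the medullary against 549, 642, 531 and 681 CPM in the cortical type, without overlap (log2 0.37, standard error 0.0795, adjusted p = 5.86e-05). This call was lost in nuclei with under 1% mitochondrial UMIs (log2 0.27, adjusted p = 0.164). *Cryab* was at 362, 162, 280 and 226 CPM against 217, 145, 149 and 126 CPM (log2 0.66, standard error 0.0997, adjusted p = 1.02e-09). With free RNA subtracted *Cryab* was at 0, 13.04, 0 and 48.9 CPM in the medullary type and at 0 CPM in all mice in the cortical type, so little of its level in this limb was left. *Akr1b3*, with 52.3 to 72.2 CPM against 49.4 to 71.9 CPM, did not pass the test (log2 0.13, standard error 0.142, adjusted p = 0.671), and neither did *Slc6a6*, *Hspb1*, *Slc14a2* and *Hspa4l*.

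In endothelium, the 83 nuclei of the arterial and descending vasa recta class were compared with all other endothelial nuclei. Of the 7 genes tested, 4 were called, 2 higher and 2 lower, against 5.68% of 12198 genes in all, 1.97% higher and 3.71% lower. The median log2 difference was -0.58 for the 7 genes and -0.38 for all genes, so values are to be read against that shift. *Slc14a1* was at 1140, 1471, 726 and 1062 CPM against 60.2, 108, 0 and 35.9 CPM, a log2 difference of 4.31 (standard error 0.269, adjusted p = 2.69e-54). The UT-B gene was thus 19.8-fold higher, in 4 of 4 mice.

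*Slc6a6* was at 731, 680, 1106 and 1352 CPM against 249, 229, 285 and 292 CPM (log2 1.47, standard error 0.233, adjusted p = 2.43e-08). It did not overlap, but the call was lost in nuclei with under 1% mitochondrial UMIs (log2 1.17, adjusted p = 0.59). *Akr1b3* (log2 -1.05, adjusted p = 0.00162) and *Cryab* (log2 -1.95, adjusted p = 8.72e-13) were lower, the former call being lost without knockout mouse 1 (log2 -0.69, adjusted p = 0.206) and with DESeq2 (log2 -1.36, adjusted p = 0.783). *Cryab* was at a log2 of -2.58 without control mouse 1. Both directions depended on the nuclei they were compared with. The *Plat*-leading endothelium, 202 nuclei with *Emcn*, *Plvap* and *Plat*, had 5184, 2050, 5870 and 3943 CPM of *Akr1b3*, whereas the capillary and venous class had 103, 113, 104 and 55.3 CPM. Against the latter alone, a choice made after the data were seen, the log2 difference was 2.02 for *Akr1b3* (adjusted p = 3.18e-10), which was higher in 3 of 4 mice and lower in knockout mouse 1. That of *Cryab* was 0.75 (adjusted p = 0.0407), but capillary and venous endothelium had 427, 490, 335 and 519 CPM, so *Cryab* of the arterial and descending vasa recta class was higher in both control mice only, above all in control mouse 1 with 4217 CPM from 22 nuclei, and lower in both knockout mice. *Slc14a1* had a log2 difference of 8.21.

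The *Plat*-leading endothelium was the endothelial class highest in *Cryab*, *Akr1b3*, *Hspb1* and *Hspa4l*. It consisted of 2 subclusters, both split from a group of clusters labeled mix, and whether they hold RNA of other cell types was not tested. In the larger, *Slc14a1* was at 28.7, 15.9, 0 and 0 CPM. In the smaller it was at 613 and 1286 CPM in control mice and 589 CPM in knockout mouse 2, while knockout mouse 1 had only 3 nuclei and no value.

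In proximal tubule, S3 (3112 nuclei), the segment that reaches into the outer medulla, was compared with S1 and S2 (10582 nuclei). Of the 9 genes tested, 3 were called, 2 higher and 1 lower, against 36.5% of 17720 genes in all, 16.4% higher and 20.1% lower. The median log2 difference was -0.14 for the 9 genes and -0.02 for all genes. *Slc6a6* was at 951, 596, 835 and 927 CPM against 289, 251, 292 and 445 CPM, 2.42-fold higher and without overlap (log2 1.28, standard error 0.0895, adjusted p = 4.47e-09). *Cryab* was at 317, 154, 401 and 190 CPM against 139, 80.7, 119 and 61.3 CPM (log2 1.28, standard error 0.102, adjusted p = 2.08e-08). *Nfat5* was lower in S3, at 226, 230, 218 and 226 CPM against 266, 284, 273 and 269 CPM (log2 -0.39, standard error 0.0648, adjusted p = 1.25e-04). The values of *Cryab* in both classes lay below its 1082 to 2801 CPM in free RNA, which makes up only a share of each class. With free RNA subtracted, *Cryab* was at 169, 80.7, 319 and 127 CPM in S3. In S1 and S2 it was then at 0, 0, 5.9 and 5.5 CPM. *Slc6a6* in S3 lay above its 213 to 240 CPM in free RNA in each mouse. *Akr1b3*, with 30.2 to 48.7 CPM in S3, did not pass the test (adjusted p = 0.0694).

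**Figure D3:**
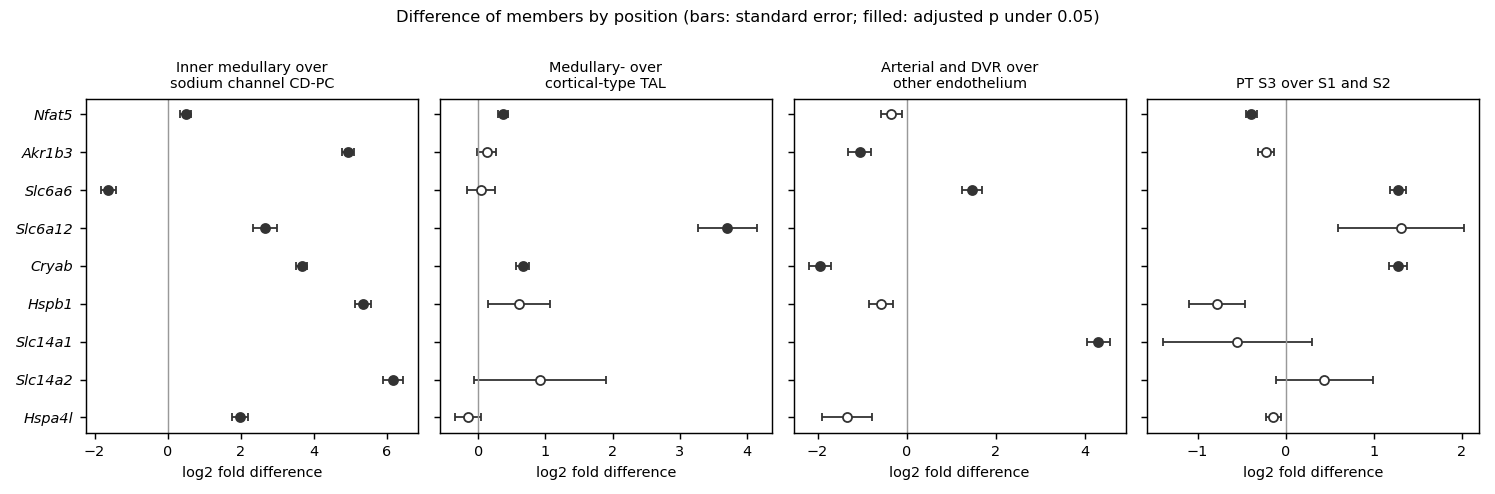
Log2 differences of the genes in 4 comparisons of position, with bars for the standard error and filled points for an adjusted p under 0.05 (edgeR, 4 mice). Genes without UMIs in 1 of both classes are not drawn. In the collecting duct 7 of the 8 points drawn lie to the right of 0 and *Slc6a6* lies at -1.62, whereas in the thick ascending limb *Slc6a12* stands apart at 3.71.

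The taurine transporter was thus called in 3 of these 4 comparisons and the betaine transporter in 2. *Slc6a6* was lower in the inner medullary collecting duct and higher in S3 and in the arterial and descending vasa recta class. *Slc6a12* was higher in the inner medullary collecting duct and in the medullary-type thick ascending limb. Such calls were not particular to these carriers, since *Cryab* was called in each of these comparisons and *Nfat5* in all but that of endothelium.

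Of 46 further genes of the pathway, 39 were tested in the collecting duct comparison, 14 were higher and 7 lower in inner medullary cells (53.8% called, against 34.7% of all genes). Among 9 chaperones tested, 6 were higher and 0 lower. *Hsph1*, a partner of HSP70 from the same family as *Hspa4l*, was at 776 against 57.5 CPM over all mice (log2 3.82), and the inducible HSP70 genes *Hspa1b* (log2 2.82) and *Hspa1a* (log2 2.51) followed, whose near-identical sequences make the split between them uncertain. *Sgk1*, a kinase induced by hypertonicity and aldosterone (log2 1.45), and *Lrrc8d*, a subunit of the volume-regulated anion channel (log2 1.29), were also among the 5 largest increases. The largest decreases were in the kinases *Fyn* (log2 -3.54), *Map2k6* (log2 -1.86) and *Stk39* (log2 -1.52), in *Sord*, sorbitol dehydrogenase (log2 -1.17), and in *Klf9* (log2 -1.09). Of 15 regulators of NFAT5, 3 were higher and 2 lower (33.3%), a share near that of all genes, with a median log2 of 0.02. *Sord* was at 24.4, 10.8, 47.8 and 6.73 CPM in inner medullary and 61.8, 24.5, 106 and 17.2 CPM in sodium channel cells. Free RNA was at most 8.92%, 3.92%, 11.3% and 2.59% of UMIs in the former and 16.4%, 6.09%, 19.6% and 6.01% in the latter. *Sord* was thus highest in the mice and the class with most free RNA. A fit with free RNA subtracted was among the alternatives, but its value for *Sord* is not given here.

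In the thick ascending limb 7 of 43 pathway genes were higher and 4 lower in the medullary type (25.6% called, against 13.7% of all genes). *Ranbp3l*, listed with the tonicity-induced genes, was at 1178 against 173 CPM over all mice (log2 2.57, adjusted p = 8.46e-166). *Slc38a2*, a carrier of neutral amino acids (log2 1.03), *Hspa1b* (log2 0.81), the cochaperone *Bag3* (log2 0.69) and *Chdh*, which makes betaine aldehyde from choline (log2 0.65), were the next. *Hspb8* (log2 -2.99, from 2 against 10 UMIs, all of them from knockout mice), *Lrrc8b* (log2 -0.98), *Akap13* (log2 -0.65) and *Map3k3* (log2 -0.62) were lower.

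In arterial and descending vasa recta endothelium 1 of 41 pathway genes was higher, *Slc38a2* (log2 0.94), and 2 were lower, *Sgk1* (log2 -1.35) and *Fyn* (log2 -1.02), so that 7.32% were called, near the 5.68% of all genes. In S3 6 of 43 were higher and 15 lower (48.8% called, against 36.5% of all genes). *Gdpd5*, which breaks down the osmolyte glycerophosphocholine, had the largest increase (log2 2.10), before *Stk39* (log2 0.98), *Slc38a2* (log2 0.62), *Map2k3* (log2 0.31) and *Pnpla6* (log2 0.28). The largest decreases were of *Lrrc8d* (log2 -1.01), *Dhx9* (log2 -0.96), *Aldh7a1*, which makes betaine from its aldehyde (log2 -0.90), *Sord* (log2 -0.84) and *Ranbp3l* (log2 -0.74).

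Knockout and control mice were compared within each of the 17 classes by edgeR's quasi-likelihood test on sums per mouse. None of the 118 pairs of a gene of the list and a class was called at an adjusted p under 0.05, with 7 pairs at an unadjusted p under 0.05. DESeq2 called 0 pairs, with 4 at an unadjusted p under 0.05. Over all genes tested, the share called was 0% in 13 classes, 0.00597% in S1 and S2 and 0.0273% in S3 proximal tubule, 0.00814% in the cortical-type thick ascending limb and 0.00888% in capillary and venous endothelium. Of the pairs, 5.93% had an unadjusted p under 0.05, against 2.86% of all tests of a gene in a class. The lowest adjusted p of a pair was 0.204.

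In inner medullary principal cells, which belong to the lineage targeted by Cre, the values of *Akr1b3*, *Cryab*, *Hspb1*, *Hspa4l*, *Slc6a6*, *Slc6a12*, *Nfat5* and *Slc14a1* overlapped between genotypes. The log2 fold change of knockout over control was 0.11 for *Akr1b3* (standard error 0.468), 0.14 for *Cryab* (standard error 0.612) and 0.11 for *Nfat5* (standard error 0.438). *Slc14a2* was at 692 and 601 CPM in control and 698 and 785 CPM in knockout mice, without overlap but within the error of the test (log2 0.19, standard error 0.316, adjusted p = 1.00). The standard errors of these changes leave room for a change of either sign.

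In sodium channel principal cells *Akr1b3* was at 228 and 228 CPM in control and 160 and 150 CPM in knockout mice. Both knockout mice were lower, but the difference did not pass the test (log2 -0.56, standard error 0.305, adjusted p = 0.999). *Slc6a6* was at 147 and 154 CPM in control and 116 and 120 CPM in knockout mice (log2 -0.36, standard error 0.311, adjusted p = 0.999). *Cryab* was at 1685 and 1054 CPM against 1114 and 675 CPM (log2 -0.61, standard error 0.385), and these values overlapped.

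The 7 pairs with an unadjusted p under 0.05 lay outside the principal cells. *Cryab* had 4217 and 649 CPM in arterial and descending vasa recta endothelium of control mice and 311 and 338 CPM in that of knockout mice (log2 -2.92, standard error 0.649, adjusted p = 0.204). The high value was that of control mouse 1, from 22 nuclei, where free RNA was at most 23.7% of UMIs and held 2031 CPM of *Cryab*. With free RNA subtracted, the values were 4588, 451, 0 and 0 CPM. *Akr1b3* was at 1463, 316, 0 and 483 CPM there (log2 -2.05, adjusted p = 0.985). Without control mouse 2 both genes were called in this class, *Cryab* at a log2 of -3.72 (adjusted p = 7.05e-04) and *Akr1b3* at -2.78 (adjusted p = 0.0282). Control mouse 1 is then the only control mouse and is assumed to vary like the knockout mice, so these calls rest on its high values.

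*Cryab* was also lower in interstitial cells of knockout mice, with 3861 and 1559 CPM in control and 1047 and 1076 CPM in knockout mice (log2 -1.36, standard error 0.449, adjusted p = 0.991), and in connecting tubule with 377 and 225 against 182 and 131 CPM (log2 -0.95, adjusted p = 1.00). *Hspb1* was at 267 and 173 CPM in thin limb of control and at 459 and 467 CPM in that of knockout mice (log2 1.07, standard error 0.357, adjusted p = 1.00). None of these passed the test over all genes, which had no term for the replicate number. With that number as a block, *Cryab* in interstitial cells (edgeR adjusted p = 0.0179) and *Hspb1* in thin limb (edgeR adjusted p = 1.71e-04) were called. With free RNA subtracted, *Cryab* of connecting tubule was at 54.0, 141, 0 and 9.71 CPM, so little of its level there was left. In interstitial cells it was then at 4401, 1523, 933 and 542 CPM. *Slc14a2* in thin limb rested on 31 UMIs, and *Slc6a12* in deep medullary epithelium on 12 UMIs, all of them from control mice. Control and knockout mice did not overlap in 29 of the 118 pairs, knockout mice being above in 12 and below in 17. For 2 mice against 2 in random order, the groups separate at a share of 0.33. The share over all genes was not computed, so these counts are not a result about the list.

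**Figure D4:**
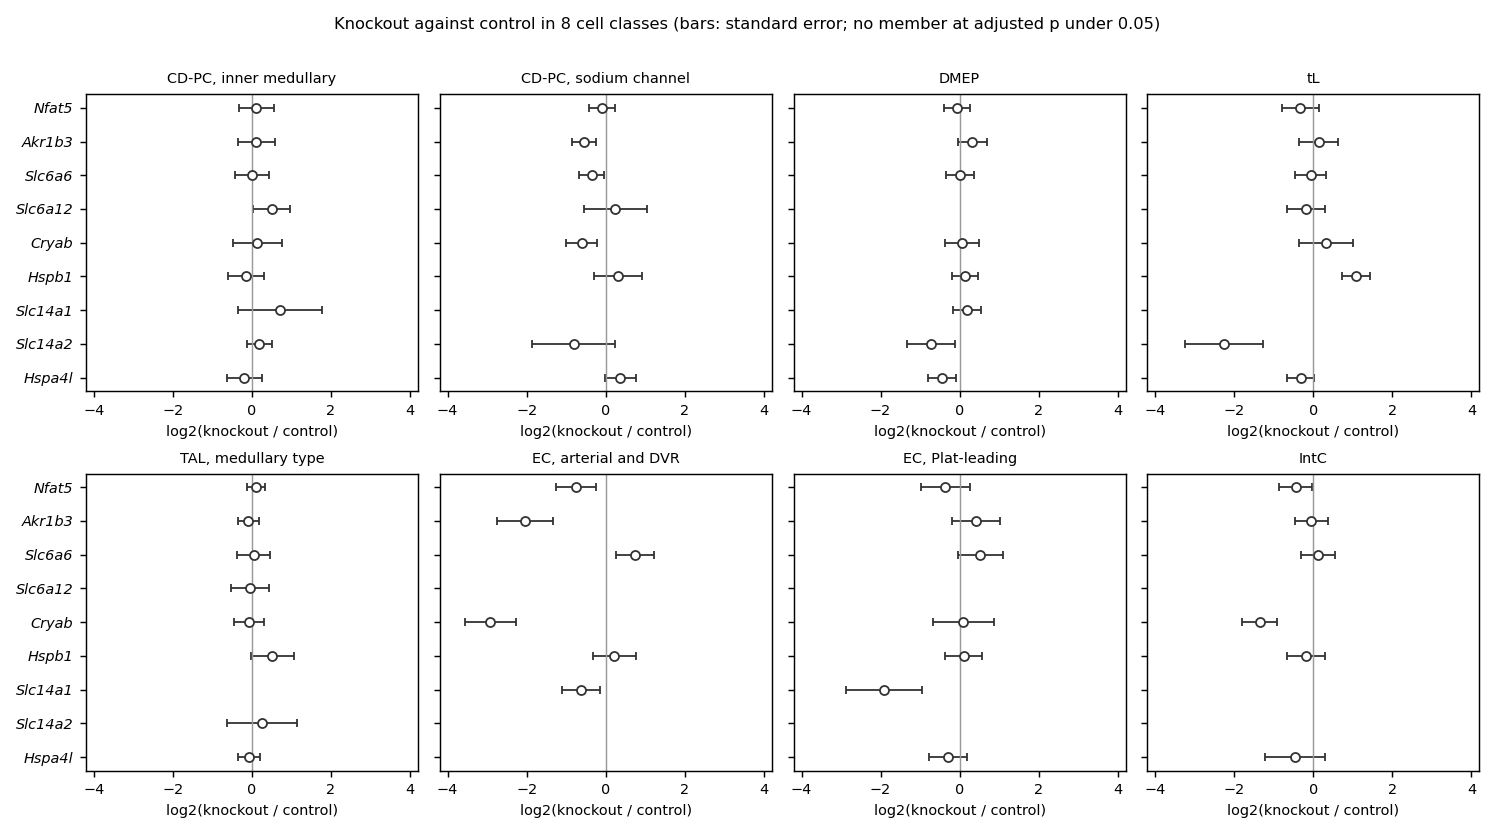
Log2 fold change of knockout over control of the genes in 8 cell classes, with bars for the standard error (edgeR, 2 mice per genotype). Genes without UMIs in 1 of both genotypes are not drawn, and no point had an adjusted p under 0.05; *Cryab* in arterial and descending vasa recta (DVR) endothelium lies lowest at -2.92, and in inner medullary principal cells the points lie between -0.19 and 0.72.

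Whether the change with genotype differed between inner medullary and sodium channel principal cells was tested as an interaction. Of the 9 genes tested, 0 were called, against 0.0152% of 13151 genes. *Cryab* was nearest, with log2 fold changes of 0.14 in inner medullary and -0.61 in sodium channel cells and a difference of 0.86 (standard error 0.244, unadjusted p = 4.11e-04, adjusted p = 0.27). *Akr1b3* had 0.11 and -0.56, with a difference of 0.70 (standard error 0.294, adjusted p = 1.0).

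Of the 615 pairs of a pathway gene and a class, edgeR called 0, with 21 at an unadjusted p under 0.05, and DESeq2 called 3, all of them *Ranbp3l*, in sodium channel principal cells, intercalated cells and the medullary-type thick ascending limb. *Ranbp3l* was at 788 and 801 CPM in sodium channel principal cells of control mice and at 155 and 168 CPM in those of knockout mice (log2 -2.31, standard error 0.336, edgeR adjusted p = 0.0826). Intercalated cells, also of the ureteric lineage, had 187 and 278 against 31.2 and 45.5 CPM (log2 -2.60). In the medullary-type thick ascending limb, which is not targeted by the Cre, *Ranbp3l* was at 2093 and 1377 CPM in control and 676 and 459 CPM in knockout mice (log2 -1.63), and in thin limb at 1087 and 979 against 328 and 482 CPM (log2 -1.37). Its log2 fold change was below 0 in 15 of 15 classes tested, and both knockout mice were below both control mice in 11 of them. Each mouse contributed to every class, so further classes do not repeat the comparison in further mice. *Ranbp3l* was also picked after its values were seen, and no such count over all genes is given here. The lowest edgeR adjusted p of these classes was the 0.0826 of sodium channel principal cells. In free RNA, *Ranbp3l* was at 182 and 139 CPM in control and 142 and 121 CPM in knockout mice. Free RNA was at most 20.7%, 9.17%, 28.7% and 6.42% of UMIs in the medullary-type thick ascending limb. A fit with free RNA subtracted was among the alternatives, but its values for *Ranbp3l* are not given here.

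For each gene, the 2 genes most like it were taken by Spearman correlation of the mean CPM of control mice over the 17 classes, among 12999 genes with at least 20 CPM in some class. Classes share libraries and depth, so these are descriptions. *Akr1b3* was most like *Itm2c* and *Gm8186* (rho 0.956 each), and *Hspb1* like *S100a6* and *Sfr1* (rho 0.963 each). *Cryab* was most like its overlapping neighbor *Hspb2* (rho 0.956) and *Eif3i* (rho 0.946). *Slc6a12* was most like *Phgdh* (rho 0.923), the first enzyme of serine synthesis, and *Dhrs13* (rho 0.905), *Nfat5* like *Pop5* (rho 0.929) and *Nxpe4* (rho 0.916), and *Slc6a6* like *Phlpp2* (rho 0.863) and *Myo7b* (rho 0.851). *Slc14a1* was nearest to *Zfp366* (rho 0.932) and *Phc2* (rho 0.926), *Slc14a2* to *Akr1b10* (rho 0.898) and *Ppm1d* (rho 0.895), and *Hspa4l* to *Abhd5* (rho 0.892) and *Krt19* (rho 0.861). Within the list, *Akr1b3* and *Hspb1* were most alike (rho 0.919), while the gene nearest to *Slc6a6* was *Slc14a1* at rho 0.328.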

How the data were processed

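The deposited files hold raw UMI counts of genes by barcode, made by the authors with the 10x Chromium 3′ kit and, per the submitters' processing notes, Cell Ranger 3.0.2 and mm10. A barcode was taken as a nucleus when it ranked among the top 10000 of its library by UMIs, had more than 500 but fewer than 4000 genes and less than 5% of UMIs from mitochondrial genes. Nuclei were clustered with Seurat 5.3.0 (R 4.3.3; 2000 variable genes, 30 dimensions, resolution 0.5) without the 10 genes and the 46 pathway genes. The limits for naming classes were set after the clusters had been seen, and clusters that were damaged, mixed or without a name entered no test. The *Plat*-leading endothelium came from a group of clusters labeled mix and was named after that group had been split into subclusters. Whether its nuclei hold RNA of other cell types was not tested. Sums of UMIs by mouse and class were tested with edgeR 4.0.16 (TMM, genes with at least 10 UMIs, adjusted p under 0.05). The 10 genes, the lists and the tests were chosen with earlier results of these data known. All 10 genes are named, with up to 5 called pathway genes per direction. *Ranbp3l* by class was chosen after its values were seen. Doublets (479, 236, 512 and 305 nuclei called) were left out only as an alternative. Free RNA was taken from barcodes with fewer than 100 UMIs. The tests were checked on simulated data for 5 classes: inner medullary and sodium channel principal cells, thin limb, medullary-type thick ascending limb and *Plat*-leading endothelium. In this order, a log2 change of 1 between genotypes was recovered in 8%, 14%, 6%, 20% and 0% of changed genes. A log2 change of 2 was recovered in 87%, 94%, 82%, 99% and 25%. Changes were planted only in genes with at least 100 expected UMIs over the mice, and all genes were given the same spread between mice. Recovery was not checked for genes of fewer UMIs or larger spread, which some genes of the list are. The 0 calls between genotypes thus do not show that changes of a log2 of 1 are absent. With 2 mice against 2 an exact permutation p cannot go below 0.33. Alternatives included DESeq2 1.42.0, no TMM, other filters, the replicate number as a block and each mouse left out.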

Additional observations from a re-analysis of the deposited data

Results flagged for a closer look

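*Ranbp3l* changed more with genotype in sodium channel than in inner medullary principal cells, by a test of the difference itself. It was at 788 and 801 CPM in control and 155 and 168 CPM in knockout mice in the former (log2 -2.31), and at 1004 and 1145 against 704 and 707 CPM in the latter (log2 -0.62). The difference of these changes was 1.72 (standard error 0.314, edgeR adjusted p = 5.33e-04 over all genes), and it was between 1.58 and 1.82 with each mouse left out. The adjusted p was over 0.05 with DESeq2 (0.741), without control mouse 1 (0.118), without knockout mouse 1 (0.763), without knockout mouse 2 (0.753), with under 1% mitochondrial UMIs (log2 1.43, 0.264), with edgeR's filterByExpr (0.244) and without the mouse as a term (1.0).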

How the results depend on the processing

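Counts of called genes kept within 1.5 times of the reported value in all 4 comparisons of position under every alternative run. With each mouse left out, they were 7 to 9 in the collecting duct, 3 in the thick ascending limb and the proximal tubule and 3 to 4 in endothelium, and 0 for the interaction. The 0 calls between genotypes became 1 with all genes of at least 1 UMI (*Cryab* in arterial and descending vasa recta endothelium, log2 -3.17), 0 to 2 with each mouse left out (2 without control mouse 2, *Akr1b3* at -2.78 and *Cryab* at -3.72 in the same class, with control mouse 1 as the only control), and 4 with the replicate number as a block. Those 4 were *Cryab* in arterial and descending vasa recta endothelium (log2 -2.68) and in interstitial cells (log2 -1.25), *Slc14a1* in *Plat*-leading endothelium (log2 -2.10) and *Hspb1* in thin limb (log2 1.09). *Ranbp3l* was called in 6 classes with this block. Deviations of same-numbered mice correlated at 0.0984 to 0.572 over the 17 classes. Libraries of mice numbered 1 held 42138345 (control) and 44964099 UMIs (knockout), those of mice numbered 2 held 24998797 and 22179410 UMIs. Median mitochondrial shares were 1.66% and 1.05% against 0.671% and 0.417%. Libraries thus differed by number, but with 2 pairs and no label for a litter or day the numbers are not known to pair mice. *Akr1b3* and *Cryab* in arterial and descending vasa recta endothelium reversed to 2.02 and 0.75 against capillary and venous endothelium alone, where the *Plat*-leading nuclei with high values are left out, but the latter was above 0 in the control mice only. Of the other values of single genes, 281 kept direction and side of the threshold and 25 only the direction. Another scaling moved the median of all genes by 0.291 (no TMM) and 0.256 (DESeq2) in endothelium and by 0.112 (no TMM) in proximal tubule. With 2 mice per genotype the standard errors between genotypes were 0.316 to 0.612 for *Slc14a2*, *Akr1b3* and *Cryab* in inner medullary principal cells, and with 10 to 32 nuclei per mouse the values of arterial and descending vasa recta endothelium rest on few UMIs.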

Other observations

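Nuclei outside the named classes also held genes of the list. A subcluster without a name, led by *Psca*, *Lypd2* and *Nrip3*, had 6417, 4643, 5311 and 6037 CPM of *Akr1b3* and 12120, 8960, 10690 and 14420 CPM of *Cryab*, with 0 to 3.67 CPM of *Slc14a2*. It held 19, 103, 14 and 33 nuclei of control mice 1 and 2 and knockout mice 1 and 2.

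A second subcluster without a name, led by *Slit3*, *Slc14a2*, *Htr4* and *Corin*, had 1347, 2272 and 547 CPM of *Slc14a2* in control mice 1 and 2 and knockout mouse 1. Both control values lay above the 601 to 785 CPM of inner medullary principal cells, and that of knockout mouse 1 lay below. In this subcluster *Akr1b3* was at 161, 105 and 54.7 CPM and *Slc6a6* at 865, 1550 and 1067 CPM. It held 18, 31 and 13 nuclei of these mice, and the 6 nuclei of knockout mouse 2 were too few for a value.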
